A study of Mus musculus with 10 samples.

Results

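The 7 mature microRNAs (miRNAs) described here are known from fibroblasts and were counted in small extracellular vesicles (sEV) isolated from C57BL/6J mice: miR-199a-3p, miR-199b-3p, miR-199a-5p, miR-199b-5p, miR-214-3p, miR-214-5p and miR-21a-5p. They were chosen by name in the table of vesicles from brown adipose tissue (BAT) and in the table of plasma vesicles. The 7 names gave 6 rows of reads among 718, because miR-199a-3p and miR-199b-3p have the same sequence and the same reads in every library and were counted once, as miR-199-3p. The 4 groups were Exe BAT (3 libraries), Sed BAT (3), Exe plasma (2) and Sed plasma (2). The titles name exercised (Exe) and sedentary (Sed) mice of this strain, and the series describes vesicles before and after exercise, yet the labels carry the same schedule for every sample, Sed included: sessions of 90 min, 2 per day, for 4 weeks. No transgene or drug is named, and no age is given. Nothing in the labels says that the libraries of a group come from separate animals. A p-value here sets a group difference against the scatter of these libraries and nothing more, and that scatter may be technical. An exact permutation p compares the difference only with those from other divisions of the same libraries.

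A miRNA gene is transcribed into a hairpin, and each side of the hairpin can give a mature strand, called the 5p and the 3p arm. An arm loaded into an Argonaute protein represses mRNAs that pair with its seed, bases 2 to 8 from the 5′ end. The miR-199a and miR-214 hairpins share a long non-coding transcript, Dnm3os, which is active in mesenchymal cells. Both miRNAs, together with miR-21, are known from activated fibroblasts and from fibrosis of the heart, lung and kidney. Vesicles carry part of the miRNA content of the cells that release them.

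The mature sequences are shown because the seed decides which targets an arm can pair with, and they are written 5′ to 3′ with the seed in capitals. They come from the RefSeq annotation of mouse build GRCm38.p6, which held 5 of the 6 distinct members.
miR-199a-5p: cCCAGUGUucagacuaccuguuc
miR-199a-3p and miR-199b-3p: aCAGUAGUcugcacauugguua
miR-214-5p: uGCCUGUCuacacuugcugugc
miR-214-3p: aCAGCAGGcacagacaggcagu
miR-21a-5p: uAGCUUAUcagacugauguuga
These 5 sequences have 5 different seeds. The miR-199-3p and miR-214-3p seeds match at 5 of 7 positions, more than any other pair of these sequences.

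The hairpins of the shared locus follow, with the mature arms in capitals, because the results below turn on the balance between arms of 1 hairpin. In the GENCODE M21 annotation of GRCm38, Mir199a-2 lies at chr1:162217814-162217923 on the plus strand and Mir214 at chr1:162223368-162223477 on the same strand, with 5444 bases between them. Both overlap exons of Dnm3os and lie inside an intron of Dnm3, antisense to it.
Mir199a-2: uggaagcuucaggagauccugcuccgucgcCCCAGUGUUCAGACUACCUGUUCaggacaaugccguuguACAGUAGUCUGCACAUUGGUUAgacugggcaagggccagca
Mir214: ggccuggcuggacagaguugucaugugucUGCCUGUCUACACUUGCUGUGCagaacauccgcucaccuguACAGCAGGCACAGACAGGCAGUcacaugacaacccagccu
The same miR-199a arms are also made from Mir199a-1 at chr9:21496495-21496564 on the minus strand, inside an intron of Dnm2 and antisense to it. The miR-199b hairpin lies at chr2:32318460-32318569 on the plus strand, antisense inside an intron of Dnm1. Mir21a lies at chr11:86584067-86584158 on the minus strand and overlaps an exon of Vmp1 on that strand. A miR-199a read can therefore come from either of 2 loci, and a miR-199-3p read from any of 3.

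The BAT libraries held 104064 to 172279 miRNA reads and the plasma libraries 1209116 to 1798169. The brown fat markers (4 of 4 with reads) took 22.9 to 29.8% of the reads in Exe BAT vesicles and 6.54 to 22.8% in Sed BAT vesicles, with Sed BAT replicate 2 lowest and apart from the other libraries. Of the 4, 2 had a read in Exe plasma vesicles and 3 in Sed plasma vesicles. The red cell markers (3 of 3 with reads) took 12.7 to 14.1% of the reads in Exe plasma vesicles and 52.9 to 70.2% in Sed plasma vesicles. In BAT vesicles they took 3.46 to 7.14% in Exe and 3.45 to 6.17% in Sed libraries. In such bulk vesicle RNA, fewer vesicles of a cell type and less of a miRNA per vesicle cannot be told apart, and the cell of origin of a read was not measured.

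The 6 members together took 1.43% ± 0.14 of the miRNA reads in Exe BAT vesicles and 2.0% ± 0.18 in Sed BAT vesicles (SD, n = 3 each). They took 0.894% ± 0.349 in Exe plasma and 1.04% ± 0.14 in Sed plasma vesicles (SD, n = 2 each). In every group miR-21a-5p made up most of this, between 77.1 and 93.9% of the members' reads per library. It stood at place 14 to 18 by abundance in the BAT libraries, at place 25 in both Exe plasma libraries and at place 16 and 17 in the Sed plasma libraries. The next members stood lower, miR-199a-5p at place 40 to 60 and miR-199-3p at place 69 to 106 in the BAT libraries. In plasma that order was turned round, with miR-199-3p at place 57 and 86 in Exe and 28 and 33 in Sed libraries, and miR-199a-5p at 98 and 104 in Exe and 97 and 177 in Sed libraries.

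**Figure D1:**
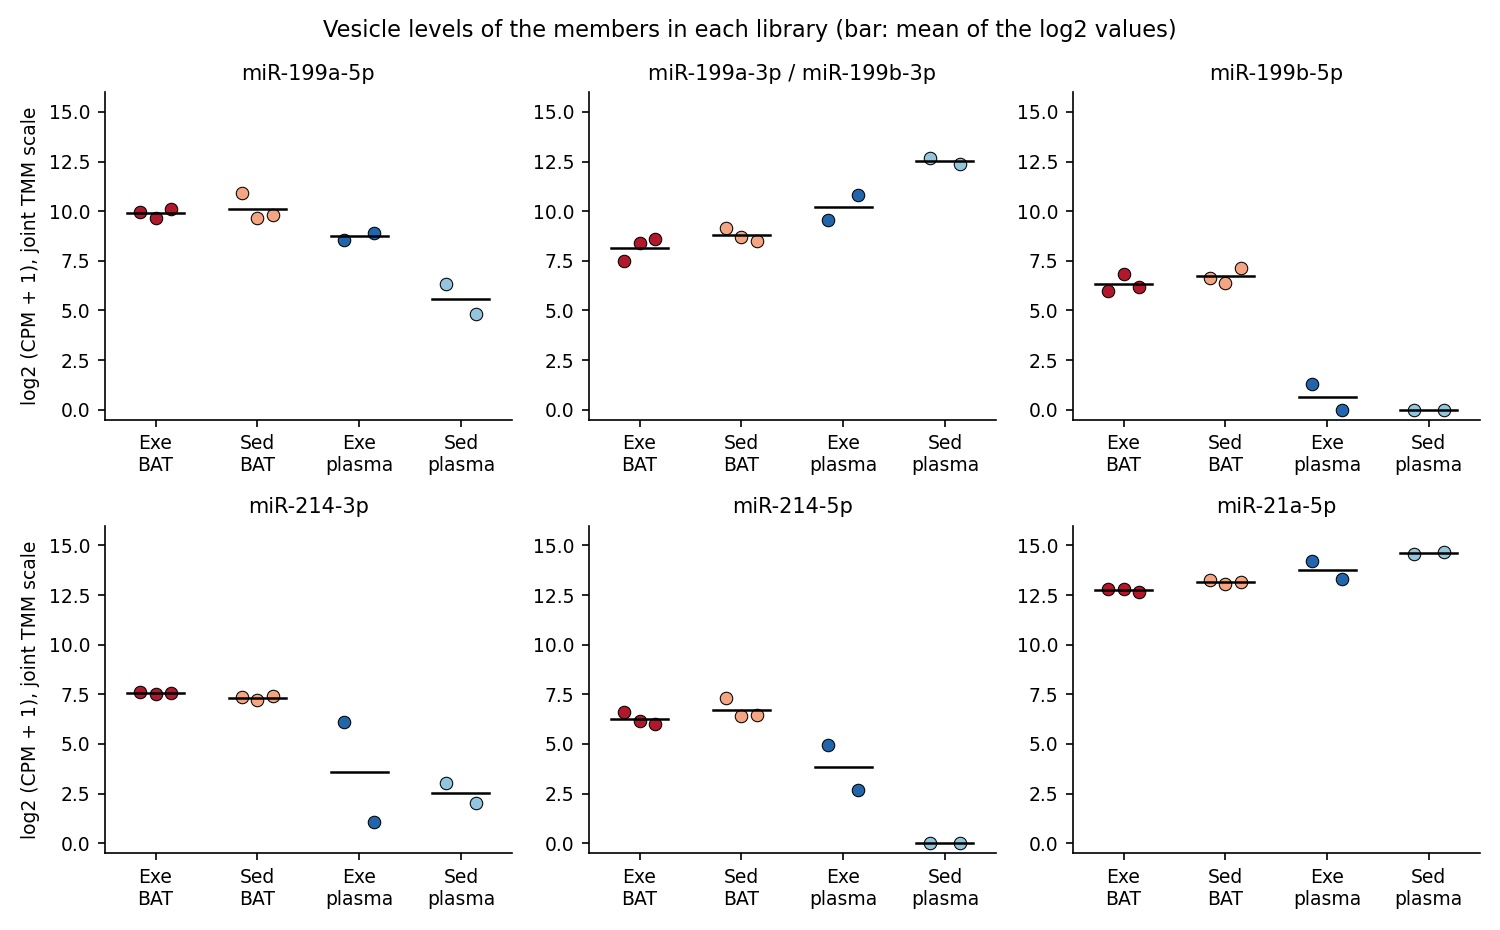
Level of each member in every library, as log2 of CPM (reads per 1000000 after TMM scaling of all 10 libraries together) plus 1. Points are libraries and bars the mean of the log2 values; miR-199a-5p lies higher in all 6 BAT libraries than in the 4 plasma libraries, while miR-199-3p lies lower in all 6.

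The first comparison asked whether exercise changed these miRNAs in BAT vesicles. No member passed the test: 5 of the 6 fold changes were below 0 and 1 above, all under 1 on the log2 scale. Levels are given as CPM, reads per 1000000 after TMM scaling within the table. For miR-21a-5p, which represses Pdcd4 and, in mouse cardiac fibroblasts, Spry1, the level was 12210, 13245 and 10817 CPM in Exe BAT and 17823, 13793 and 16126 CPM in Sed BAT vesicles. All 3 Exe libraries lay below the lowest Sed library, but by a narrow margin. The difference was -0.40 ± 0.22 (log2 fold change ± SE, approximate 95% interval -0.83 to 0.04). Its adjusted p was 0.201 by edgeR's quasi-likelihood test with Benjamini-Hochberg adjustment over all 196 miRNAs tested. The 95% intervals of log2 fold changes, here and below, are normal approximations from the SE and are too narrow for so few libraries.

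The arms of miR-199 also did not separate Exe from Sed BAT vesicles. For miR-199-3p, known to repress mTOR in human liver cancer cells and to promote division of rodent cardiomyocytes, the level was 306, 619 and 653 CPM in Exe BAT and 1033, 679 and 640 CPM in Sed BAT vesicles. The groups overlapped, with 1 low Exe library and 1 high Sed library at the ends. The log2 fold change was -0.57 ± 0.33 (95% interval -1.21 to 0.07, edgeR adjusted p = 0.215). For miR-199a-5p, a repressor of caveolin 1 in human lung fibroblasts, the level was 1671, 1498 and 1858 CPM in Exe BAT and 3504, 1299 and 1609 CPM in Sed BAT vesicles. Sed replicate 1 alone lay above every Exe library, and the other Sed libraries lay within or below the Exe range. The log2 fold change of -0.35 ± 0.36 (edgeR adjusted p = 0.499) became 0.22 without Sed replicate 1. The level of miR-199b-5p, which represses Dyrk1a in the mouse heart, was 105, 208 and 120 CPM in Exe BAT and 180, 136 and 247 CPM in Sed BAT vesicles, from 12 to 32 reads a library. These groups overlapped, with a log2 fold change of -0.35 ± 0.36 (edgeR adjusted p = 0.515).

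The fold changes of the miR-214 arms had opposite signs, and neither passed. For miR-214-3p, a repressor of Ezh2 in mouse muscle cells, the level was 332, 339 and 317 CPM in Exe BAT and 302, 242 and 302 CPM in Sed BAT vesicles. Every Exe library lay above every Sed library, from 32 to 52 reads each, but the log2 fold change was only 0.23 ± 0.24 (95% interval -0.24 to 0.69, edgeR adjusted p = 0.515). The 5p arm, from 17 to 45 reads, was at 166, 130 and 108 CPM in Exe BAT and 289, 136 and 155 CPM in Sed BAT vesicles. Here the groups overlapped, and the log2 fold change was -0.55 ± 0.37 (95% interval -1.27 to 0.17, edgeR adjusted p = 0.296).

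In all, edgeR called 0 of the 6 members between Exe and Sed BAT vesicles, where it called 21.9% of the 196 miRNAs tested. None of the 6 had an unadjusted p under 0.05, against 39.8% of all tested, and DESeq2 and limma-voom also called 0. The groups did not overlap for 2 members, miR-214-3p and miR-21a-5p, against 44.4% of all miRNAs tested. The median log2 fold change was -0.38 over the 6 members and -0.05 over all 196. Leaving out Sed replicate 2, which stood apart, the 6 log2 fold changes ran from -0.66 to 0.22 and again none passed (edgeR adjusted p from 0.17 to 0.595). The brown fat marker share given above differed between the same libraries, and its part in these values was not tested. In the 6 BAT libraries both arms of miR-378a held 163429 reads together, against 13247 for miR-193b, so miR-378a weighs heavily in that share. Of the markers miR-193b-3p (1.17 ± 0.28) and miR-455-3p (1.57 ± 0.44) were called higher in Exe. The others were not called, with miR-378a-3p at 0.73 ± 0.62 and miR-365-3p the other way at -1.08 ± 0.35.

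In plasma vesicles, exercise was compared over 2 libraries a group, and 3 of the 6 members had enough reads to be tested. The read counts of the 2 miR-199a arms lay in opposite directions. For miR-199-3p the libraries held 502 and 1646 reads in Exe plasma and 2666 and 3467 reads in Sed plasma vesicles. These correspond to 283 and 890 CPM in Exe plasma and 3077 and 1994 CPM in Sed plasma. Both Exe libraries lay below both Sed libraries, with a log2 fold change of -2.11 ± 1.2 (95% interval -4.46 to 0.24, edgeR adjusted p = 0.272). For miR-199a-5p the libraries held 254 and 428 reads in Exe plasma and 33 and 18 reads in Sed plasma, or 143 and 231 CPM in Exe and 38.1 and 10.4 CPM in Sed. Both Exe libraries lay above both Sed libraries, with a log2 fold change of 2.95 ± 1.90 (95% interval -0.77 to 6.67, edgeR adjusted p = 0.327).

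The level of miR-21a-5p was 7195 and 4994 CPM in Exe plasma and 11425 and 9788 CPM in Sed plasma vesicles. The Exe libraries lay below the Sed libraries, with a log2 fold change of -0.80 ± 0.66 (95% interval -2.09 to 0.49, edgeR adjusted p = 0.455). Its partner arm miR-21a-3p had 0 reads in both Exe plasma libraries and 5 and 157 reads in the Sed plasma libraries, and 1 to 5 reads in each BAT library. The remaining members were near the limit of detection in plasma. The 3p arm of miR-214 had 46 and 1 reads in Exe plasma and 3 and 2 reads in Sed plasma vesicles, so that 1 Exe library stood alone. Its 5p arm had 20 and 5 reads in Exe plasma and 0 in both Sed libraries, which is at least 5.99-fold higher when the Sed group is set at a floor of 3 counts over the group. A single read of miR-199b-5p, in Exe replicate 1, was the only 1 in plasma, and no fold is given.

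Between Exe and Sed plasma vesicles edgeR called 0 of the 3 tested members, as it did 0% of the 180 miRNAs tested, 60 of which (33.3%) had an unadjusted p under 0.05 but none of the 3 members. DESeq2 and limma-voom, which called 56 and 40 miRNAs, also called 0 members. All 3 tested members had groups that did not overlap, against 58.9% of the 180. The red cell share of the reads was lower in both Exe than in both Sed plasma libraries, and its part in these differences was not tested. Most of that share was miR-451a, with 134144 and 232086 reads in the Exe and 936594 and 948848 in the Sed plasma libraries. Between Exe and Sed plasma miR-451a was at -3.02 ± 0.57 (edgeR adjusted p = 0.0875) and miR-144-3p at -1.57 ± 1.92 (0.594). The marker miR-486a-5p went the other way, at 2.74 ± 1.57 (0.277).

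**Figure D2:**
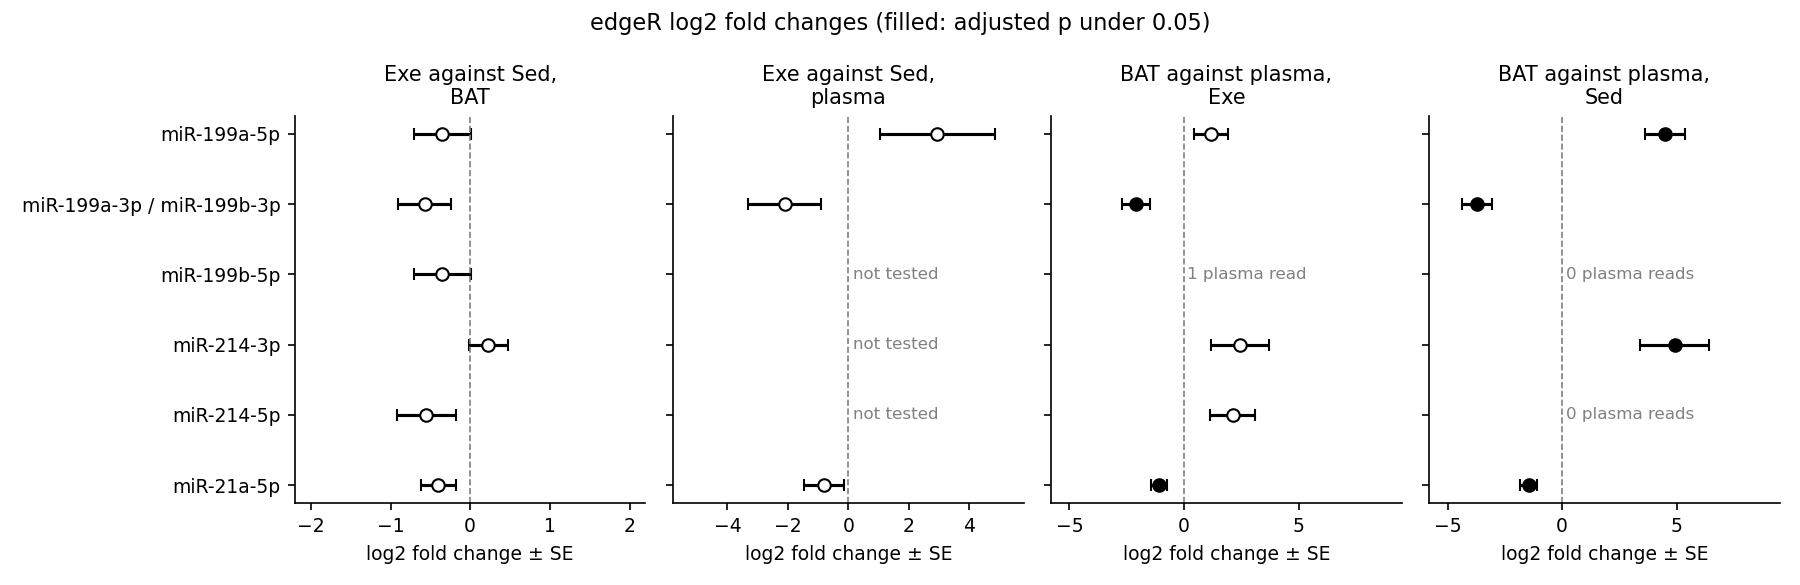
Log2 fold change ± SE (edgeR) of each member in the 4 comparisons, with the first group named on top of the fold. Filled points have an adjusted p under 0.05; members not tested, or with 3 reads or fewer in the plasma group, are marked in words. The points for miR-199a-5p and miR-199-3p lie on opposite sides of 0 in both comparisons of BAT with plasma.

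The next comparison set BAT against plasma vesicles, in a joint fit of all 10 libraries over the miRNAs listed in both tables. In it the source cannot be told apart from the table, the depth or a batch of sequencing. The joint TMM factors were 1.58 to 2.11 in BAT and 0.310 to 0.565 in plasma libraries, and levels on this scale depend on them. On this joint scale miR-199a-5p was at 964 ± 139 CPM in Exe BAT, 1199 ± 613 CPM in Sed BAT, 426 ± 66 CPM in Exe plasma and 53.5 ± 37.0 CPM in Sed plasma vesicles (SD, n = 3 for BAT and 2 for plasma groups). The 2 BAT groups did not differ beyond their spread, and the plasma groups followed in that order below them. On the joint scale levels of miR-199-3p were lowest in the BAT groups and highest in Sed plasma. They were 301 ± 107 CPM in Exe BAT, 445 ± 105 CPM in Sed BAT, 1283 ± 755 CPM in Exe plasma and 5843 ± 835 CPM in Sed plasma vesicles. Scaled within each table instead, the Sed BAT mean (784 CPM) lay above the Exe plasma mean (587 CPM). The BAT means differed by more than either SD, and the libraries of the BAT groups overlapped. The level of miR-21a-5p was 6922 ± 481 CPM in Exe BAT, 9040 ± 635 CPM in Sed BAT, 14627 ± 6267 CPM in Exe plasma and 24836 ± 1341 CPM in Sed plasma vesicles. Exe plasma and Sed BAT, neighbours in this order, differed by less than the Exe plasma spread. Levels of miR-214-3p were 189 ± 6 CPM in Exe BAT, 160 ± 11 CPM in Sed BAT, 34.9 ± 47.8 CPM in Exe plasma and 5.13 ± 2.98 CPM in Sed plasma vesicles, and the 2 plasma groups did not differ beyond their spread. Its 5p arm was at 77.4 ± 18.0 CPM in Exe BAT, 109 ± 42 CPM in Sed BAT and 17.7 ± 17.2 CPM in Exe plasma vesicles, with 0 reads in Sed plasma, and the libraries of its BAT groups overlapped. The level of miR-199b-5p was 82.1 ± 27.7 CPM in Exe BAT and 106 ± 29 CPM in Sed BAT, closer than their spread, with 1 read in all 4 plasma libraries.

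Among Sed libraries all 6 members passed the test, 4 higher and 2 lower in BAT than in plasma vesicles, where edgeR called 44.6% of the 231 miRNAs tested, 25.1% higher and 19.5% lower. Of the higher members, miR-199b-5p, miR-214-3p and miR-214-5p met the read filter only through BAT libraries, as their plasma reads were too few. That filter favours a higher level in BAT, so their calls and their lack of overlap are no independent support. In BAT vesicles miR-199a-5p was higher by 4.49 ± 0.87 on the log2 scale (edgeR adjusted p = 0.00272), and it was called under all 18 alternatives run. At the same time miR-199-3p was lower, at -3.71 ± 0.65 (edgeR adjusted p = 0.00157), called under 17 of 18. The exception was scaling by library size alone, where it was -1.27 with an edgeR adjusted p of 0.109. The 18, here and for Exe libraries below, include fits that leave out a library outside the contrast. Those bear on it only through the filter, the scaling and the shared spread. The 3p arm of miR-214, with 32 to 47 reads in Sed BAT libraries and 2 and 3 reads in Sed plasma libraries, was higher by 4.92 ± 1.5 (edgeR adjusted p = 0.0211). That call was lost without any 1 of Sed BAT replicates 1 and 3 and Sed plasma replicates 1 and 2, with values of 4.6 to 5.09 and edgeR adjusted p of 0.0514 to 0.0988. It was also lost with the second plasma values, at 3.23 (edgeR adjusted p = 0.0841). With the Sed plasma libraries at 0 reads, miR-214-5p was at least 41-fold higher in BAT (edgeR adjusted p = 0.00259) and miR-199b-5p at least 37.4-fold higher (edgeR adjusted p = 0.00217). The value for miR-21a-5p was -1.46 ± 0.36 (edgeR adjusted p = 0.00823), but its direction flipped to 0.97 when libraries were scaled by their size alone, and with the second plasma values the same -1.46 had an edgeR adjusted p of 0.0541. Without Sed BAT replicate 2 all 6 calls remained, with an edgeR adjusted p of 0.0411 or less. The median log2 fold change of all 231 miRNAs was 1.52. The groups did not overlap for all 6 members, against 70.6% of all miRNAs tested.

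Among Exe libraries 3 of the 6 members passed, 1 higher and 2 lower in BAT than in plasma vesicles, against 69.7% of the 231 miRNAs tested, 43.3% higher and 26.4% lower. The higher member, miR-199b-5p, met the read filter only through BAT libraries, as did miR-214-3p and miR-214-5p. The BAT level of miR-199-3p was again lower, at -2.09 ± 0.62 (edgeR adjusted p = 0.0131), a call kept under 11 of 18 alternatives. The call was lost without Exe BAT replicate 1 (-1.83, edgeR adjusted p = 0.0586), Exe BAT replicate 3 (-1.9, 0.0678) or Exe plasma replicate 2 (-0.98, 0.141). It was also lost under other scalings, at -0.85 with upper-quartile factors (edgeR adjusted p = 0.28) and -0.43 with library size alone (0.567), and with the second plasma values (-1.77, 0.0948). For miR-199b-5p the 63 reads in Exe BAT against 1 read in Exe plasma gave a ratio of 133 on the CPM scale (exact 95% counting interval 23.1 to 5351, edgeR adjusted p = 0.00242). The value for miR-21a-5p was -1.08 ± 0.36 (edgeR adjusted p = 0.0208), called under 3 of 18 alternatives, with -0.11 without Exe plasma replicate 1 and -0.45 without Exe BAT replicate 3, and above 0, at 0.32 and 0.55, with upper-quartile factors and with library size alone. The others did not pass, with 1.18 ± 0.73 for miR-199a-5p (edgeR adjusted p = 0.169), 2.44 ± 1.27 for miR-214-3p (0.111) and 2.12 ± 0.99 for miR-214-5p (0.0814). All 3 passed with DESeq2, at 1.93 for miR-199a-5p (DESeq2 adjusted p = 0.0056), 3.32 for miR-214-3p (0.00471) and 2.99 for miR-214-5p (0.000564). They also passed in edgeR with upper-quartile factors (2.49, 3.99 and 3.59 in the same order, adjusted p of 0.0106 to 0.0168) and with library size alone (2.82, 4.02 and 3.72, adjusted p of 0.00704 to 0.0233). With limma-voom miR-214-3p passed as well (4.27, adjusted p = 0.0132). Without Exe plasma replicate 1, which held 46 of the 47 Exe plasma reads of miR-214-3p, that value was 7.41 with an edgeR adjusted p of 0.00112, and the value for miR-214-5p was 4.16 with an adjusted p of 0.00925. Both also passed when other single libraries were left out, miR-214-3p without Exe plasma replicate 2 (1.83, edgeR adjusted p = 0.0457) and miR-214-5p without Exe BAT replicate 3 (2.89, 0.0485) or Sed plasma replicate 1 (2.49, 0.048). Leaving out Sed plasma replicate 1 or 2 gave 1.52 (edgeR adjusted p = 0.0268) and 1.34 (0.0427) for miR-199a-5p. The groups did not overlap for all 6 members, against 80.1% of all miRNAs tested, and the median of all 231 was 0.86.

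The balance between the arms of miR-199 was then taken within each library, where no scaling between libraries enters. It is a ratio of reads, not of molecules. In every BAT library the 5p arms had more reads than the 3p row, and in every plasma library the 3p row had more. The reads of miR-199-3p over those of miR-199a-5p and miR-199b-5p together were 0.172, 0.363 and 0.330 in Exe BAT and 0.280, 0.474 and 0.345 in Sed BAT vesicles. In plasma vesicles the ratio was 1.97 and 3.85 in Exe and 80.8 and 193 in Sed libraries. All 6 BAT libraries lay below all 4 plasma libraries, and both Exe plasma libraries below both Sed plasma libraries.

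The mean log2 ratio, with 0.5 added to each count, was -1.67 ± 0.48 in BAT libraries (SD, n = 6) and 4.20 ± 3.22 in plasma libraries (SD, n = 4). The difference of -5.86 had a p of 0.00952 in a two-sided exact permutation test, the smallest that 6 against 4 libraries allow, and 0.0476 after Benjamini-Hochberg adjustment over 15 such tests. It pools Exe with Sed libraries, and BAT lay below plasma within each. The Exe minus Sed difference in plasma was -5.47, with an exact permutation p of 0.333, the smallest possible with 2 against 2. In BAT it was -0.38 (exact permutation p = 0.5). With the second plasma values in place of reads, the ratio was 1.97 and 3.83 in Exe and 161 and 23.2 in Sed plasma libraries. All 6 BAT libraries still lay below all 4 plasma libraries, with a difference of -5.32, so the unadjusted permutation p stayed at its smallest value. The adjusted threshold was not passed. In both settings the adjusted p also depends on the other ratios tested. Among these is miR-199a-5p over miR-199b-5p, whose plasma values rest on the 0.5 added to each count. The size of the Sed plasma ratio rests on 18 and 33 reads of the 5p arm.

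**Figure D3:**
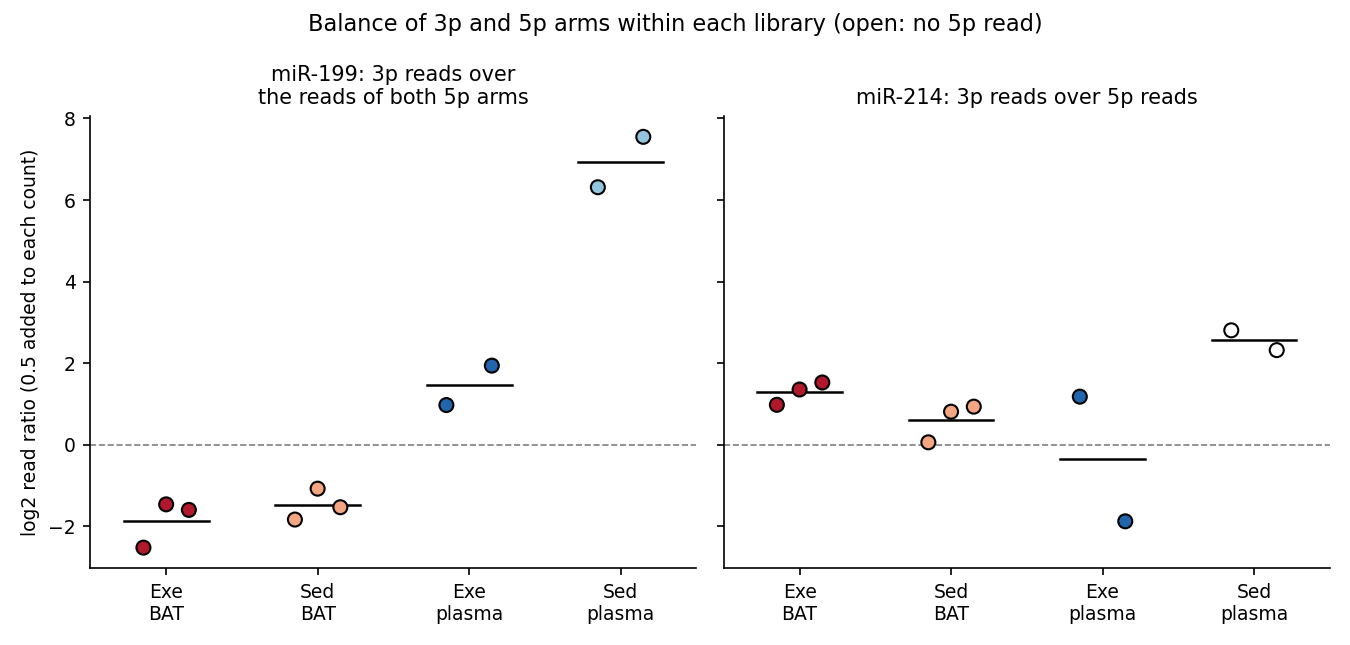
Log2 ratio of 3p to 5p reads in each library for miR-199 (left) and miR-214 (right), with 0.5 added to each count; bars are group means and open points have no 5p read. The 6 BAT libraries lie below 0 and the 4 plasma libraries above 0 for miR-199, which is not so for miR-214.

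The arm balance of every other miRNA with both arms listed in both tables, and at least 10 reads in each source, was described for reference. There were 83 such miRNAs, miR-199a, miR-214 and miR-21a included. The BAT libraries lay wholly below or above the plasma libraries for 21.7% of them, and wholly below for 10.8%. For 1 miRNA, or 1.2%, the more abundant arm was one in every BAT library and the other in every plasma library. That miRNA was miR-199a, a count looked at after its values were seen. By size its BAT minus plasma difference was at place 9 of the 83. The ratios of Exe and Sed plasma libraries did not overlap for 49.4% of the 83, and miR-199a was at place 19 by size there. For Exe and Sed BAT libraries the share was 18.1%, and the miR-199a ratios overlapped.

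**Figure D4:**
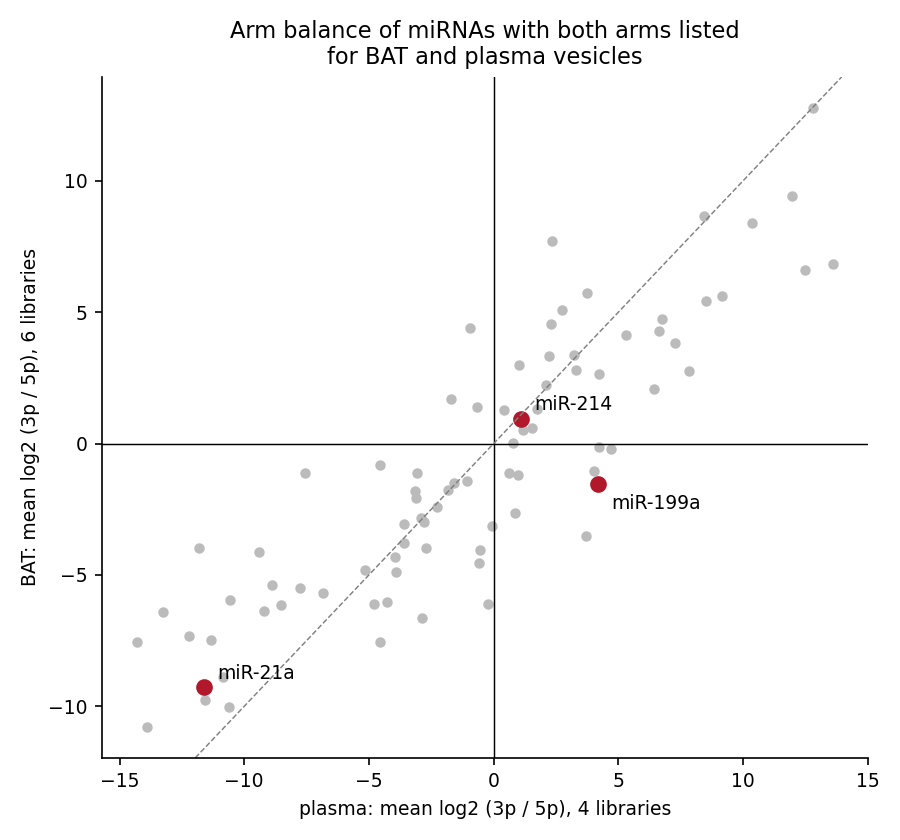
Mean log2 ratio of 3p to 5p reads in the 6 BAT libraries (vertical) against the 4 plasma libraries (horizontal) for 83 miRNAs, each a point; the dashed line marks equal ratios. The miR-199a point lies in the lower right, with more 5p reads in BAT and more 3p reads in plasma, while miR-214 and miR-21a lie on the same side of 0 in both sources.

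The other ratios between members were taken in the same way. The reads of miR-214-3p over miR-214-5p were 2.0, 2.6 and 2.94 in Exe BAT and 1.04, 1.78 and 1.94 in Sed BAT vesicles. The Exe ratios lay above the Sed ratios, by 0.69 on the log2 scale, with an exact permutation p of 0.1, the smallest possible with 3 against 3, and an adjusted p of 0.25. In plasma the ratio was 2.3 and 0.2 in Exe libraries and had no 5p read to divide by in Sed libraries, and with 0.5 added to each count BAT and plasma overlapped (difference -0.16, exact permutation p = 0.952). The reads of miR-199a-5p over miR-199b-5p were 6.52 to 19.5 in BAT libraries. In plasma the 5p reads of miR-199 were almost all miR-199a-5p, and the difference of BAT minus plasma was -3.63 (exact permutation adjusted p = 0.0476). Its size, the lack of overlap and its p all rest on the 0.5 added to each count. The reason is that 3 of the 4 plasma libraries held no miR-199b-5p read. The Sed plasma libraries held only 33 and 18 reads of miR-199a-5p, too few to place their ratio above the highest BAT ratio.

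Mir199a-2 and Mir214 share a transcript, but a miR-199-3p read can also come from other loci, so the next ratio does not test that sharing. The reads of miR-199-3p over miR-214-3p were 0.921, 1.83 and 2.06 in Exe BAT and 3.43, 2.81 and 2.12 in Sed BAT vesicles. All Exe ratios lay below all Sed ratios, by -0.85 on the log2 scale (exact permutation p = 0.1, the smallest possible, adjusted p = 0.25). In plasma this ratio was 10.9 and 1646 in Exe and 889 and 1734 in Sed libraries. The difference of BAT minus plasma was -7.37 (exact permutation adjusted p = 0.0476), and in 3 of the 4 plasma libraries it rests on 1 to 3 reads of miR-214-3p. For miR-21a-5p over miR-199-3p the BAT minus plasma difference was 1.64, with an exact permutation p of 0.0571 and an adjusted p of 0.214. No other contrast of the 15 passed the adjusted threshold.

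Whether the exercise difference itself differed between BAT and plasma vesicles was tested as an interaction in the joint fit. It was called for 2 of the 6 members, a share close to the 34.2% that edgeR called of all 231 miRNAs tested. For miR-199a-5p the Exe effect in BAT minus that in plasma was -3.31 ± 1.03 (edgeR adjusted p = 0.0345), called under 6 of 18 alternatives, with adjusted p of 0.0111 to 0.184 over the 18. The call was lost without any 1 of the 6 BAT libraries or Exe plasma replicate 2, with values of -3.56 to -2.72. For miR-214-5p the edgeR adjusted p was 0.0241, called under 8 of 18 alternatives (range 0.00976 to 0.158), and lost without any 1 of Sed BAT replicates 1 and 3, the 3 Exe BAT libraries and the 2 Sed plasma libraries. Its fitted value of -6.37 depends on the prior count, since the Sed plasma libraries held no read. The values that did not pass were 1.62 ± 0.89 for miR-199-3p (edgeR adjusted p = 0.176), -2.49 for miR-214-3p (0.271), -2.05 for miR-199b-5p (0.372) and 0.38 for miR-21a-5p (0.576). Under other settings miR-199-3p passed with DESeq2 (2.27, adjusted p = 0.0189) and with edgeR's upper-quartile factors (2.98, 0.0398). The value for miR-21a-5p passed at 1.92 with upper-quartile factors (edgeR adjusted p = 0.012) and was -0.42 with library size alone. With upper-quartile factors miR-199a-5p was at -1.92 and no longer called (edgeR adjusted p = 0.146). Without Exe plasma replicate 1 the value for miR-214-3p was 2.51. Without Exe plasma replicate 2 the values for miR-199-3p and miR-214-3p were 2.71 (edgeR adjusted p = 0.0315) and -3.13 (0.0224). The single effects stand above and share their libraries with this test.

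Similarity of pattern was measured as the root mean square difference of log2 CPM, each miRNA centred on its own mean. Over the 6 BAT libraries miR-218-5p (0.248), miR-708-5p (0.258) and miR-497a-5p (0.259) lay nearest to miR-199-3p, against a median of 0.649 over 195 miRNAs. Nearest to miR-21a-5p there were miR-499-5p (0.139), miR-15a-5p (0.145) and miR-29c-3p (0.202), against a median of 0.480. Over all 10 libraries the nearest to miR-199-3p were let-7g-5p (0.551), miR-499-5p (0.656) and miR-16-5p (0.663), against a median of 2.77. Its own hairpin partner miR-199a-5p was at 3.28, at place 165 of 230. For miR-21a-5p they were miR-99a-5p (0.516), miR-27a-3p (0.537) and miR-499-5p (0.637), against a median of 2.09. These distances share the libraries, their depth and their scaling, and are descriptions without a test.

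Other miRNAs known from mesenchymal cells were set beside the members, from a list of 18 that holds, among others, the smooth muscle pair miR-143 and miR-145a and the Hox cluster miRNAs miR-10a and miR-10b. Between Exe and Sed BAT vesicles edgeR called 0 of 14 tested (21.9% of all miRNAs), with 1 at an unadjusted p under 0.05 and 0 called by DESeq2 or limma-voom. The median log2 fold change was 0.01, against -0.05 over all 196. The smallest p was that of miR-497a-5p, at -0.77 ± 0.25 (edgeR adjusted p = 0.0525). In plasma edgeR called 0 of 12 between Exe and Sed, DESeq2 called 4 and limma-voom 2, and 3 had an unadjusted edgeR p under 0.05. The smallest p there were those of miR-10b-5p (6.86 ± 1.48, edgeR adjusted p = 0.0879), miR-27b-3p (-3.13 ± 0.78, 0.0879) and miR-10a-5p (3.52 ± 1.02, 0.0914).

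Between BAT and plasma vesicles the mesenchymal list went both ways, as the members did. In Sed libraries 7 of 15 were higher and 2 lower in BAT, beside 25.1% and 19.5% of all miRNAs, with a median of 2.42 against 1.52 over all 231. The smallest p were those of miR-27b-3p (-3.0 ± 0.42, edgeR adjusted p = 0.000585), miR-322-5p (4.44 ± 0.80, 0.00185) and miR-10b-5p (3.87 ± 0.75, 0.00272). In Exe libraries 7 of 15 were higher and 3 lower, beside 43.3% and 26.4% of all, with a median of 1.67 against 0.86. There miR-10a-5p (-3.72 ± 0.59, edgeR adjusted p = 0.000742) and miR-10b-5p (-2.64 ± 0.63, 0.00445) were lower in BAT and miR-143-3p (2.73 ± 0.57, 0.00261) higher. The higher ones include miR-152-3p in Sed (4.0 ± 1.31) and in Exe libraries (4.32 ± 1.31), and miR-145a-3p in Exe libraries (4.11 ± 1.54). Both were tested between Exe and Sed in BAT but not in plasma. The read filter can favour a higher BAT level for them, as for the members, so these calls are no independent support. The interaction was called for 5 of 15, beside 34.2% of all, with miR-10b-5p first (-6.52 ± 0.98, edgeR adjusted p = 0.00177).

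A list of 15 miRNAs known to restrain or promote fibrosis, such as the collagen-repressing miR-29 family, was read in the same way. Between Exe and Sed BAT vesicles 2 of 12 fell and none rose, a share below the 21.9% called of all 196 miRNAs tested. They were miR-34a-5p (-1.05 ± 0.20, edgeR adjusted p = 0.0109) and miR-29b-3p (-1.19 ± 0.26, 0.0143). Its family member miR-29a-3p was at 0.69 ± 0.24 and did not pass (edgeR adjusted p = 0.0611). In plasma edgeR called 0 of 13 between Exe and Sed, DESeq2 called 3 and limma-voom 2, and 5 had an unadjusted edgeR p under 0.05. Of 13 tested, 3 were higher and 3 lower in BAT than in plasma vesicles of Sed mice, against 25.1% higher and 19.5% lower of all 231, and 6 higher and 3 lower in those of Exe mice, against 43.3% and 26.4% of all. The interaction was called above 0 for 3 of 13 and below 0 for 1, beside 34.2% of all 231 called. The smallest p was that of miR-34a-5p (2.51 ± 0.58, edgeR adjusted p = 0.0117). These counts are close to the shares over all miRNAs.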

How the data were processed

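Per the file headers, the authors deposited whole-number read counts for each mature miRNA in each library, in separate tables for BAT and plasma. The deposited BAT table also holds RPM, each value being the read count over 1 total per library. The plasma table holds a second whole number beside each count, of a making not stated, used only as an alternative. The submitters' processing notes list Bowtie 0.12.2 and the mouse builds mm8 and mm9, with no role given. How reads were trimmed and counted, and against which miRBase release, is not given in the sources used here. RNA was extracted with Trizol, per the labels' protocols.

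Counts were analysed as deposited, with 3 pairs of identical rows counted once, in R 4.3.3 with edgeR 4.0.16 (TMM, filterByExpr, robust quasi-likelihood test, Benjamini-Hochberg adjustment over all tested miRNAs, threshold 0.05). The SE is the log2 fold change over the square root of F. DESeq2 1.42.0, limma 3.58.1 (voom), other scaling factors, no filter, the rows as deposited, the RPM totals, the replicate number as a block and leaving out each library were alternatives. The use of the second plasma values in the joint fit and the ratios was chosen after seeing the data. Read ratios used a pseudocount of 0.5 and exact permutation tests in scipy 1.17.1. Plots used matplotlib 3.10.9. The procedure was run on simulated counts with known changes, with less spread between libraries than the plasma libraries have. That run checks the direction of the changes and does not give an error rate for these data. Counting intervals and floors (3 counts) cover counting error only, and PCR copies are not independent molecules. The intervals of log2 fold changes also take in the scatter between libraries.

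Every member is named. From the mesenchymal and fibrosis lists only some miRNAs of smallest p are named, and others that passed the threshold are not. For similarity the nearest 3 are named. The members and lists were chosen with earlier results of these data known.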

Additional observations from a re-analysis of the deposited data

Results flagged for a closer look

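The effect of exercise differed between BAT and plasma vesicles for 2 members by a test of the difference itself, a share close to the 34.2% called of all 231 miRNAs. For miR-199a-5p the difference of the Exe effect, BAT minus plasma, was -3.31 on the log2 scale. For miR-214-5p it was -6.37, a fitted size that depends on the prior count because both Sed plasma libraries held 0 reads. The call was kept under 6 of 18 alternatives for miR-199a-5p and 8 of 18 for miR-214-5p, and limma-voom called 0 members. The ratio of miR-214-3p to miR-214-5p reads was higher in Exe than in Sed BAT vesicles, by 0.69 on the log2 scale, and lower in Exe than in Sed plasma vesicles, by -2.91. This difference between the sources was not tested, and the plasma value rests on the 0.5 added to each count.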

How the results depend on the processing

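No member was called between Exe and Sed in BAT or in plasma vesicles by edgeR or under any of their alternatives, while the count of all miRNAs called moved. In BAT it was 43, with 24 under the replicate block and 15 to 66 without 1 library (15 without Exe replicate 3, 17 without Exe replicate 1, 27 without Exe replicate 2 and 66 without Sed replicate 2). In plasma it was 0, with 4 under upper-quartile factors, 12 under library size alone, 56 under DESeq2, 17 without a filter, 7 under the replicate block, 40 under limma-voom, 10 with the second plasma values and 0 to 25 without 1 library. Between BAT and plasma it was 103 in Sed libraries, with 63 under the block and 80 to 160 without 1 library (160 without Exe plasma replicate 2), and 161 in Exe libraries, with 107 under the block. The count of members called was 3 in Exe libraries, with 5 under DESeq2, 1 under the block, 1 with the second plasma values and 1 to 4 without 1 library. For the difference of Exe effects it was 2, with 0 without a filter, 1 under the block, 0 under limma-voom, 0 with the second plasma values and 0 to 3 without 1 library. All miRNAs called there were 79, with 39 under limma-voom and 37 to 115 without 1 library. The deviations of same-numbered Exe and Sed libraries had r = 0.058, -0.10 and -0.19 in BAT and -0.026 in plasma, across miRNAs. The highest r in BAT, 0.33, was that of Exe replicate 2 with Sed replicate 3. In plasma, with 2 libraries a group, r has the same size for every pair. The numbers were not taken as pairs, though so few libraries cannot exclude pairing. Under the block 4 of the 6 members were called between BAT and plasma in Sed libraries, without miR-214-3p (3.24, edgeR adjusted p = 0.196) and miR-21a-5p (-1.6, 0.0598), and in Exe libraries miR-199-3p (-1.89, 0.166) and miR-21a-5p (-1.15, 0.0792) were not. In the difference of effects it left out miR-199a-5p (-3.37, 0.0829).

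Of the ratios, 3 passed the threshold, 0 with the second plasma values and 0 without any 1 library, where the smallest possible p is larger. The miR-199 arm ratio of BAT against plasma was -5.86, then -5.32 with the second plasma values and -6.94 to -4.75 without 1 library. Values that changed sign were those of miR-21a-5p between BAT and plasma (0.97 in Sed with library size alone, 0.32 and 0.55 in Exe with upper-quartile factors and library size alone) and for its difference of effects (-0.42 with library size alone). Without 1 library, miR-199a-5p ranged from -0.51 to 0.22 in BAT (0.22 without Sed replicate 1) and miR-214-3p from -3.13 to 2.51 in the difference of effects (2.51 without Exe plasma replicate 1). Among ratios, the miR-214 arms of BAT against plasma reached 0.14 with a pseudocount of 1 and ranged from -1.16 to 0.4 without 1 library. Without 1 library the Exe minus Sed difference ranged from -0.18 to 0.61 for miR-199a-5p over miR-199b-5p in BAT, from -0.13 to 0.49 for miR-21a-5p over miR-199-3p in BAT, and from -6.57 to 0.09 for miR-199-3p over miR-214-3p in plasma. The causes were not tested. Upper-quartile factors moved the median of all miRNAs by 0.17 in BAT, -0.95 in plasma and 1.58 in BAT against plasma of Exe libraries, and library size alone moved it by 2.35 in those of Sed libraries. Plasma counts of 0 to 46 reads limit what can be said of miR-214 and miR-199b-5p there.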
